A study of Mus musculus with 6 samples.

Results

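Genes that mark fat cell progenitors were followed in cultures of mouse inguinal adipocytes, cells of a subcutaneous white depot that had been fully differentiated before treatment. The 10 genes of the set were Pdgfra, Pdgfrb, Dlk1, Ly6a, Cd34, Thy1, Pi16, Dpp4, Cd55 and Lum, matched by symbol to the array annotation. A row was found for 9 of the 10, among 27365 genes with a symbol, and Ly6a had none under its own name. One group of 3 arrays came from cells given 50 µM kynurenic acid for 12 h and the other group of 3 from cells given PBS, the control, for the same time. All arrays carried RNA of primary adipocytes of inguinal white adipose tissue, and strain, age and sex of the animals are not given in the sources used here. By their titles the 3 arrays of a group are technical replicates. No label ties them to different dishes or animals, and the p-values given here therefore cover the spread of these 6 arrays and may say nothing of biological spread. The comparison asks which transcripts differed after an acute exposure to kynurenic acid, a breakdown product of tryptophan.

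Adipocytes arise from mesenchymal progenitors in the stromal part of fat, which are isolated by proteins on their surface. The receptor tyrosine kinases Pdgfra and Pdgfrb, the stem cell antigen Ly6a (Sca-1) and the sialomucin Cd34 are used to sort them. Dpp4, Pi16 and Cd55 mark an early population in the interstitium of mouse subcutaneous fat, and Dlk1 (Pref-1) marks preadipocytes and restrains their differentiation. Several of these proteins, among them Ly6a, Thy1 and Cd55, are held in the membrane by a lipid anchor. Lum is no surface protein: it encodes lumican, a secreted proteoglycan of the fibroblast matrix. In a bulk RNA sample, fewer cells of a type and less RNA per cell cannot be told apart.

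RefSeq promoter windows were at hand for 6 of the 10 genes, Pdgfra, Dlk1, Cd34, Pi16, Dpp4 and Cd55, and the 250 bases before the start of each were searched on both strands. Kynurenic acid is reported to bind the aryl hydrocarbon receptor Ahr, so the core of that receptor's response element, GCGTG, came first. The windows of Dlk1 and Cd55 held 1 match each and the other 4 held none, against a match in 28.2% of 32851 windows of all genes. The GC box GGGCGG was found 2 times in the Cd55 window and in none of the other 5, against 32.7% of all windows. The CCAAT box CCAAT (33.9% of windows) had 1 match, in the Pi16 window, and the TATA box TATAAA (12.4%) 1 match, in the Dpp4 window. The 29 bases around each Ahr core are shown because among the 6 windows only these 2 hold the core letters. They are from GRCm38.p6, read 5′ to 3′ on the gene's own strand, with the core in capitals (CACGC is GCGTG on the opposite strand). Both stretches lie inside the span of the RefSeq gene, which extends further upstream than the start used here. A match describes letters only and is not a measured binding site.
Dlk1, chr12:109452760-109452788, plus strand: tacaggcgggctGCGTGgaggggcagcat
Cd55, chr1:130462774-130462802, minus strand: aacgccctcttgCACGCaggctgccccac

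The labelled cell type was checked against its defining transcripts. Values are RMA values on the log2 scale, which place all arrays on one distribution, and a background level was taken as the mean of 23 antigenomic probe sets that match no mouse sequence, 3.58 to 3.91 over the arrays. Single antigenomic sets read from 1.74 to 7.26, so this mean is a rough bar. Adiponectin (Adipoq) read 9.54 to 9.70, the lipid droplet coat gene Plin1 9.15 to 9.43 and the fatty acid binding protein gene Fabp4 12.45 to 12.58, all far above background on 6 of 6 arrays. Progenitor markers were also read in these differentiated cultures. Of the 9 genes, 7 were above background on all 6 arrays, Lum was above it on 4 and Dpp4 on 0. By the same bar 15030 of all 27365 genes were above background on all arrays. Among the 7, Cd34 and Pi16 lay at most 0.70 and 0.58 log2 above it.

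A cluster that carries another name lies at the Ly6a gene. A cluster is the set of probes summarised as 1 row. The annotation gives the symbol Ly6i to 2 clusters on chromosome 15 (mm10, the build that RefSeq calls GRCm38). One of them, 14 probes at 74979812 to 74983430, lies on the RefSeq gene Ly6i (74979534 to 74983434) and read 3.04 to 3.69. The other, 9 probes at 74994877 to 74997888 on the minus strand, lies wholly within the RefSeq gene Ly6a (74994877 to 74998031) and covers 95.5% of it. It read 11.69, 11.90 and 11.90 with PBS, against 11.76, 11.96 and 11.80 with kynurenic acid. The groups overlapped, and the change of 0.01 log2 had a 95% interval from -0.20 to 0.22 (limma adjusted p = 0.979). Ly6 genes are close copies of each other, so part of this signal could come from relatives, although the annotation lists the probes as specific. The cluster is given beside the 9 members and is not counted among them.

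In the Ly6 family, 12 genes with Cd59a, 0 passed the test, 2 stood lower and 1 higher at an unadjusted p below 0.05, and the median was -0.03 log2. Ly6c1, also an interstitial progenitor marker, read 3.43, 3.55 and 3.79 with PBS, against 2.60, 3.66 and 2.46 with kynurenic acid. It was above the background of its array on PBS array 3 alone, so these values lie at the background level. The naming rule given below does not pick Ly6c1. Ly6c2, whose cluster the annotation does not list as specific, averaged 7.51 with PBS and 7.30 with kynurenic acid. Its change was -0.21 with overlapping groups (limma adjusted p = 0.549). Ly6d averaged 4.36 with PBS and 4.63 with kynurenic acid, a change of 0.28 with overlapping groups (limma adjusted p = 0.502). Ly6a and Ly6c genes are known to respond to interferon, and the 23 interferon-stimulated genes differed widely between arrays. Their mean deviations from the 6-array mean were -0.13, 0.67 and -0.19 with PBS, against -0.23, 0.33 and -0.44 with kynurenic acid, highest on array 2 of both groups, with 0 genes called and a median change of -0.22. That median rests on single arrays: it was 0.057 without PBS replicate 2, -0.080 without kynurenic acid replicate 3, -0.43 without kynurenic acid replicate 2, -0.40 without PBS replicate 3 and -0.33 without PBS replicate 1. The Ly6a-position cluster was also highest on kynurenic acid array 2 but differed on other arrays. It read 11.90 on both PBS arrays 2 and 3, where the interferon-stimulated genes stood at 0.67 and -0.19. Its lowest value, 11.69, was on PBS array 1, and theirs, -0.44, on kynurenic acid array 3. The part of the interferon pattern in the Ly6 values was not tested.

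No progenitor marker passed the test for a difference between kynurenic acid and PBS. The test was limma over all 27365 genes, two-sided, with Benjamini-Hochberg adjustment and a threshold of 0.05, and it called 0 of the 9 members and 0.0% of all genes. The smallest adjusted p of a member was 0.472, for Lum, and the smallest over all genes was 0.435. At an unadjusted p below 0.05 stood 1 member on the lower side, Lum, and 0 on the higher side, where 5.0% of all genes were lower and 4.69% higher (9.69% in either direction). With arrays centred on their medians that split was 2038 genes lower and 725 higher, against 1369 and 1284 here. With both arms apart from each other stood 1 member on the lower side and 0 on the higher, against 7.58% and 7.14% of all genes (14.7% in either direction). The methods' t-test, run on the same values, also called 0 members and 0 genes after adjustment. Changes ran from -0.33 for Lum to 0.083 for Cd34, 6 below 0 and 3 above, with a median of -0.067 log2 against 0.0067 over all genes. None of the 9 reached 1.5-fold, a size that 0.135% of all genes reached. The 95% intervals extended 0.19 to 0.30 log2 to either side of the estimate, and changes of that size could not be told from none.

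**Figure D1:**
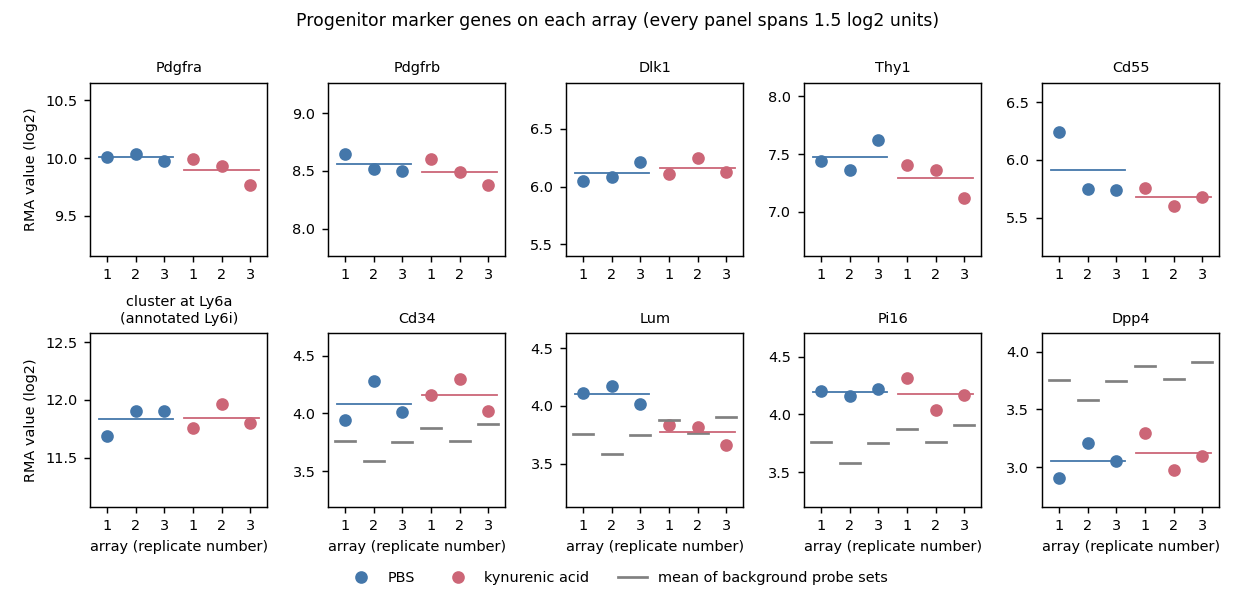
RMA values (log2, vertical axis) of the 9 progenitor markers and of the Ly6i-annotated cluster at the Ly6a position on each array, by replicate number (horizontal axis). Points are single arrays, coloured lines are group means and grey dashes are the array's mean of the background probe sets. Lum is the 1 gene whose groups do not overlap, and Dpp4 lies below the background dashes on all 6 arrays.

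The PDGF receptor genes were read well above background and their groups overlapped. Pdgfra, the receptor that marks most adipocyte progenitors, lies on chromosome 5 and is read by 17 probes from 75152291 to 75198204 (mm10, as are all array positions). It measured 10.01, 10.04 and 9.98 with PBS, against 9.99, 9.93 and 9.77 with kynurenic acid. All values but the last fell within 0.11 log2 of each other, and kynurenic acid array 3 was the lowest. The change was -0.11 log2 with a 95% interval from -0.30 to 0.076 (limma adjusted p = 0.670), which spans -18.9% to 5.41% on the linear scale. Pdgfrb, the receptor shared by progenitors, fibroblasts and pericytes, measured 8.65, 8.52 and 8.50 with PBS, against 8.60, 8.49 and 8.38 with kynurenic acid. Again kynurenic acid array 3 was the lowest, and the change was -0.067 with an interval from -0.27 to 0.13 (adjusted p = 0.825). Rgs5, a pericyte transcript, read 2.84 to 3.57 and was below background on all 6 arrays, although 8 of 10 genes of the pericyte and smooth muscle list were above it.

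Genes that act with these receptors gave no call either. Of 14 genes for PDGF ligands and receptor signalling, all above background, 0 passed the test, with 1 on the higher side and 0 on the lower at an unadjusted p below 0.05. That gene was Lrp1, a large endocytic receptor that binds PDGF receptor beta, at 9.18 ± 0.075 (mean ± SD of 3 arrays) in the PBS group and 9.37 ± 0.060 in the other, a change of 0.19 log2 (limma adjusted p = 0.509). Ptpn11, the phosphatase recruited to the active receptors, had a change of 0.13 and Src, a kinase downstream of them, 0.15. The median of the list was -0.058 log2.

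Dlk1 was read above the background mean in the differentiated cultures and did not pass the test. It is read by 25 probes on chromosome 12 from 109452823 to 109463336. The values were 6.05, 6.08 and 6.21 with PBS, against 6.11, 6.25 and 6.13 with kynurenic acid. The groups overlapped, and all values were 2.22 to 2.50 log2 above the background of their arrays. The change was 0.05 log2 with an interval from -0.14 to 0.24 (limma adjusted p = 0.864), the narrowest interval of the 9 members. Its protein is a relative of the Notch ligands and is released from the cell by Adam17. In the list of Notch receptors, ligands, targets and Adam17, 0 of 12 genes passed, with 2 on the higher side and 0 on the lower at an unadjusted p below 0.05 and a median of 0.092 log2. Notch2 measured 7.26, 7.15 and 7.15 with PBS, against 7.40, 7.31 and 7.42 with kynurenic acid, a change of 0.19 (adjusted p = 0.506). The other was Dll4, which did not read above background on all arrays and is named after its values were seen. Adam17 had a change of -0.17 and the Notch target gene Hey1 one of 0.19.

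The transcripts of Thy1 and Cd55, both anchored by glycosylphosphatidylinositol, had lower means with kynurenic acid, and in each case single arrays carried much of the difference. Thy1, a marker of fibroblasts and progenitors that T cells also carry, measured 7.44, 7.36 and 7.62 with PBS, against 7.41, 7.36 and 7.12 with kynurenic acid. The PBS array 2 and the kynurenic acid array 2 gave the same value, and kynurenic acid array 3 alone lay below all PBS arrays. PBS array 3 was the highest. The single-array differences by number, which no label gives as pairs, were -0.03, 0 and -0.5. The change was -0.18 log2 with an interval from -0.42 to 0.062 (limma adjusted p = 0.600), and -0.088 without kynurenic acid replicate 3. None of the 7 T cell markers was above background on all arrays, and Cd3e read 3.32 to 3.68.

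Cd55 encodes decay-accelerating factor, which shields cells from complement. It is read by 13 probes on chromosome 1 from 130439027 to 130462744, which covers 67.4% of the RefSeq gene. The annotation places Gm16083 and Daf2, a close relative of Cd55, on the opposite strand of that gene. On the same strand it places Gm15675, which covers 21.1% of the gene. The Daf2 and Gm15675 clusters lie outside the Cd55 cluster. It measured 6.24, 5.75 and 5.74 with PBS, against 5.76, 5.60 and 5.68 with kynurenic acid. PBS array 1 stood at least 0.48 log2 above every other array, and the other 5 arrays lay close together. The change was -0.23 with an interval from -0.53 to 0.073 (limma adjusted p = 0.591), and it was -0.065 without PBS replicate 1. By root mean square difference of mean-centred log2 values over the 6 arrays, the 5 genes closest to Cd55 among 12242 candidates were Parvb, Coro1a, Ect2, Hist1h3h and Cdca2, at 0.05 to 0.076 log2. Coro1a is a leukocyte actin regulator, and Ect2 and Cdca2 act in cell division. All 5 were highest on PBS array 1, which their choice by likeness to Cd55 out of 12242 genes favours. They are no further evidence on its values. Macrophage markers had a mean deviation of 0.17 log2 from their 6-array means on that array. They were also high on PBS array 2 (0.11) and kynurenic acid array 1 (0.090), where Cd55 read 5.75 and 5.76. Their part in the Cd55 value was not tested.

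Among 8 measured complement regulators, 0 passed the test, and the median was -0.073 log2. Cd59a, a lipid-anchored inhibitor of the membrane attack complex, averaged 6.82 ± 0.12 (SD, n = 3) in the PBS arrays against 6.56 ± 0.064 (SD, n = 3) in those of kynurenic acid, a change of -0.26 (limma adjusted p = 0.475).

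Cd34, Pi16 and Dpp4 were read close to or below background. Cd34 measured 3.94, 4.28 and 4.01 with PBS, against 4.16, 4.30 and 4.02 with kynurenic acid, 0.11 to 0.70 log2 above the background of each array. The array 2 of both groups was the highest, and the groups overlapped. Its change was 0.083 log2 with an interval from -0.17 to 0.34 (limma adjusted p = 0.829). Pi16, a peptidase inhibitor of universal fibroblasts, measured 4.20, 4.16 and 4.22 with PBS, against 4.32, 4.04 and 4.17 with kynurenic acid. PBS values lay within those of kynurenic acid, and the change was -0.017 with an interval from -0.22 to 0.19 (adjusted p = 0.964).

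Dpp4, the dipeptidyl peptidase CD26, measured 2.91, 3.21 and 3.05 with PBS, against 3.30, 2.98 and 3.10 with kynurenic acid. All 6 values were 0.37 to 0.85 log2 below the background of their arrays, so no change of Dpp4 can be read from them (estimate 0.07, limma adjusted p = 0.855). On the opposite strand the annotation places the clusters Gm13561 across Dpp4 and Gm16897 across Cd34. In the dipeptidyl peptidase family, 0 of 9 genes passed and 1 was lower at an unadjusted p below 0.05. It was Prcp, a lysosomal carboxypeptidase, with a change of -0.22 (adjusted p = 0.504).

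Lum had the largest estimated change of the 9 members, and its groups did not overlap. It is read by 25 probes on chromosome 10 from 97565501 to 97572703, the whole RefSeq gene. It measured 4.11, 4.17 and 4.02 with PBS, against 3.83, 3.82 and 3.66 with kynurenic acid. All 3 kynurenic acid arrays were below every PBS array, which was so on the lower side for 7.58% of all genes, so 1 in 9 members is near the background. The change was -0.33 log2 (SE 0.085), a fold of 1.26 downward with an interval from -30.3% to -9.17%, a limma p of 0.00358 and an adjusted p = 0.472. The authors' deposited table gives a signed fold change of -1.26, p = 0.00851 and q = 0.522 for Lum. All 3 PBS arrays were above background by 0.40 log2 on average, and only 1 of 3 kynurenic acid arrays was above it. The background means were 3.76, 3.58 and 3.75 on the PBS arrays and 3.88, 3.76 and 3.91 on the kynurenic acid arrays. Kynurenic acid array 1, at 3.83, was below its own bar and above those of all PBS arrays. The kynurenic acid values of Lum were thus at the background level, so the fold is only a rough value. Single-array differences by number, which no label gives as pairs, were -0.28, -0.35 and -0.36.

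Genes closest to Lum by the same measure were Snx1, Fgf7, Pigu, Armcx1 and Tmem48, at 0.027 to 0.030 log2, over 6 arrays. Unlike Lum these were read well above background, and all 5 had lower values on the 3 kynurenic acid arrays than on any PBS array, with changes from -0.34 to -0.28 and limma adjusted p = 0.472 for each. Fgf7, a growth factor made by stromal cells, measured 7.83, 7.89 and 7.79 with PBS, against 7.57, 7.58 and 7.35 with kynurenic acid. Having been picked for their likeness to Lum out of 12242 genes, they are no further evidence of its change.

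Other small leucine-rich proteoglycans, the family of lumican, gave 0 calls among 11 genes, with 2 lower and 1 higher at an unadjusted p below 0.05 and a median of -0.023 log2. Ogn (osteoglycin) measured 8.25, 8.56 and 8.47 with PBS, against 8.03, 8.25 and 8.13 with kynurenic acid, a change of -0.29 (limma adjusted p = 0.475), and its groups met at 8.25. Decorin (Dcn) averaged 11.14 ± 0.021 (SD, n = 3) in the PBS arrays against 10.98 ± 0.096 (SD, n = 3) in those of kynurenic acid, a change of -0.16 (adjusted p = 0.556).

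**Figure D2:**
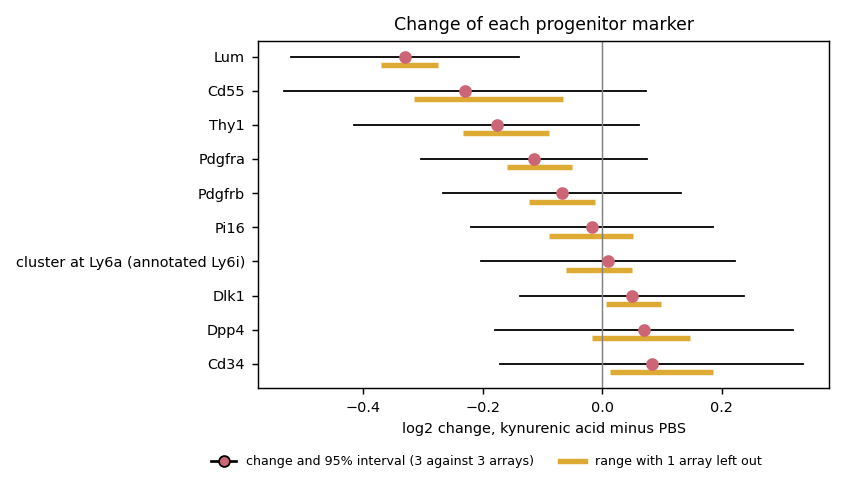
Log2 change (kynurenic acid minus PBS, horizontal axis) of each progenitor marker and of the cluster at the Ly6a position (vertical axis). Points and black lines are the limma estimate with its 95% interval from 3 against 3 arrays, and yellow bars show the range when 1 array is left out. The interval of Lum lies below 0, and those of the other 8 members include 0.

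Further markers of the same lineage were read beside the members. Of 12 interstitial progenitor markers, 0 passed the test, and 3 were lower and 0 higher at an unadjusted p below 0.05, with a median of -0.03 log2. Of these 3, Mfap5, a microfibril protein of early progenitors, was above background on all arrays and measured 9.99, 9.95 and 9.98 with PBS, against 9.83, 9.81 and 9.70 with kynurenic acid. Its change was -0.19 (limma adjusted p = 0.499) without overlap of the groups. In the same list Cd248 (endosialin) had higher values on all 3 kynurenic acid arrays, 8.76, 8.73 and 8.71 against 8.58, 8.50 and 8.63 (change 0.16, adjusted p = 0.522). Of 12 committed preadipocyte markers, 0 passed and 0 stood at an unadjusted p below 0.05 in either direction, with a median of -0.0083. Col15a1 had a change of -0.19 and Fmo2 one of -0.17. Of 21 general stromal and fibroblast markers, 0 passed, and 1 was lower and 0 higher at an unadjusted p below 0.05, the tetraspanin gene Cd9 at -0.23 (adjusted p = 0.502). Their median was -0.057.

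**Figure D3:**
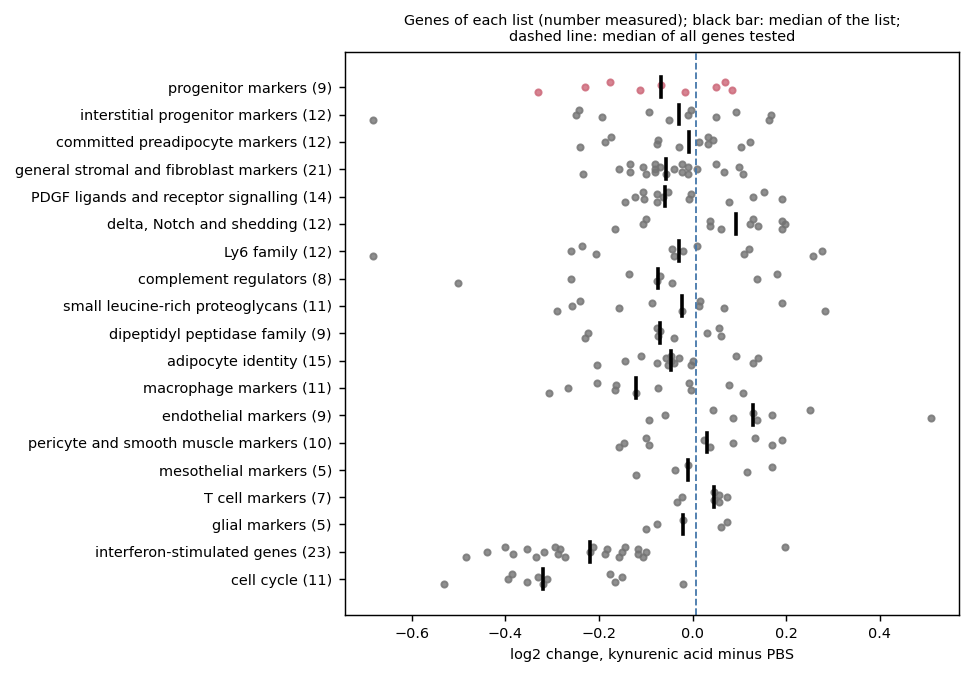
Log2 change (kynurenic acid minus PBS, horizontal axis) of each measured gene (points) in the progenitor markers and in 18 other lists (vertical axis, with the number measured). Black bars are list medians and the dashed line is the median of all genes, 0.0067. Progenitor, preadipocyte and stromal lists have points on both sides of 0. Below 0 are 6 of 9 members, 8 of 12 interstitial, 6 of 12 committed preadipocyte and 16 of 21 stromal markers. By their medians the cell cycle and interferon-stimulated lists lie furthest to the left.

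Kynurenic acid array 3 stood low for many lists, this lineage among them. Of the 18 lists beside the members it was the lowest array for 9, including the 3 progenitor, preadipocyte and stromal lists, the macrophage markers (-0.16) and the interferon-stimulated genes (-0.44). It had the lowest value of 4 of the 9 members (Pdgfra, Pdgfrb, Thy1 and Lum), and of 14 of the 45 other progenitor, preadipocyte and stromal genes. The same array was lowest for 23.8% of the 15030 genes read above background on all arrays. Averaged over the 9 members, deviations from the 6-array mean were 0.047, 0.049 and 0.025 on the PBS arrays and 0.039, -0.039 and -0.12 on the kynurenic acid arrays. Kynurenic acid array 1 lay among the PBS arrays. Without kynurenic acid replicate 3 the median change of the members was -0.013, that of Pdgfra -0.05, of Pdgfrb -0.012 and of Lum -0.28.

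Other cell types and states differed along the arrays in their own way. Adipocyte identity genes, 15 measured and all above background, had mean deviations between -0.022 and 0.021, a median change of -0.047 and 0 genes at an unadjusted p below 0.05. Macrophage markers, 11 genes all above background, were high on PBS arrays 1 and 2 and kynurenic acid array 1 (0.17, 0.11 and 0.090) and low on the other 3 arrays (-0.12, -0.087 and -0.16). Ptprc (CD45), which all leukocytes carry, read 4.98 to 5.94 and was lowest on kynurenic acid array 3. Of 9 endothelial markers, 4 were above background on all arrays, with a median of 0.13 (0.068 without kynurenic acid replicate 2 and 0.065 under both filters), and Cdh5 read 4.99 to 5.17 with PBS and 5.54 to 5.69 with kynurenic acid (limma adjusted p = 0.472). Of 10 pericyte, 5 mesothelial and 5 glial genes, 0 stood at an unadjusted p below 0.05, with medians of 0.03, -0.01 and -0.02. Mesothelial Msln read 3.54 to 3.79, above background on 2 of 6 arrays. Cell cycle genes had mean deviations of 0.19, 0.048 and 0.19 on the PBS arrays and -0.086, -0.22 and -0.12 on the others. Of the 11 measured, 7 stood lower at an unadjusted p below 0.05, against 5.0% of all genes, and 0 passed. All 11 had a change below 0, with a median of -0.32. Whether any of these movements has a part in the values of the progenitor markers was not tested.

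**Figure D4:**
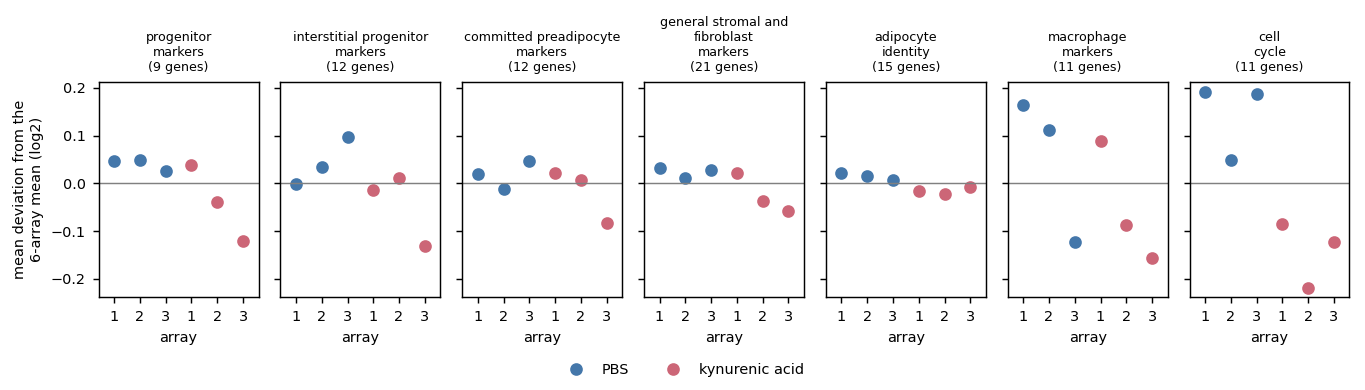
Mean deviation of each list from its 6-array mean (log2, vertical axis) on the 3 PBS and 3 kynurenic acid arrays (horizontal axis, replicate number). Each point averages all measured genes of the list on 1 array. Kynurenic acid array 3 is the lowest point for the progenitor, interstitial, preadipocyte, stromal and macrophage lists, and among the 7 lists plotted the adipocyte identity genes vary least.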

How the data were processed

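Total RNA was hybridised to MoGene 2.0 ST arrays after WT Plus labelling, per the labels' protocols. The authors ran RMA in Expression Console 1.41, per the submitters' processing notes. It gave the deposited log2 values (background correction, quantile normalization, median polish, per the file headers). Annotation is NetAffx build 34 on mm10, per the file headers. In the authors' deposited table stand group mean intensity, a signed fold change, a p-value (Student's test, per the file headers) and a q-value of unstated method. Its columns named S are taken as kynurenic acid, the group that is not its control, and equal the columns labelled so in the other table. The 2 tables held identical values in 41345 clusters. Quantile normalization would hide a change of most transcripts in 1 direction.

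For each symbol the cluster with crosshyb_type 1 and the highest mean over the 6 arrays was kept; 1751 of 27365 symbols had none of that type and kept their brightest cluster. The test was limma 3.58.1 (lmFit, eBayes; R 4.3.3) on all genes without covariates or filter, with Benjamini-Hochberg adjustment at 0.05. On simulated arrays of 27365 genes for this comparison, 89 of 100 genes changed by 1 log2 and 32 of 100 changed by 0.5 log2 were called, with 8 false calls. The noise there was independent between genes and arrays, with the spreads of the genes shuffled. Those rates hold for that setting and do not cover array effects shared by many genes, or biological spread. The number of arrays limits the precision.

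The members and gene lists were chosen from textbook knowledge with earlier results of these data known. All members were named, and from each list up to 3 genes above background with the smallest unadjusted p. One gene that this rule names is not reported here. For the 2 members with the widest range, Cd55 and Lum, the 5 closest genes were named. RefSeq positions and promoter windows are of GRCm38.p6, the assembly that mm10 numbers. Alternatives were another cluster choice, median centring, cyclic loess, 2 filters, an intensity trend, array weights, the methods' t-test, a replicate block, the series matrix values and leaving out each array. Labels and headers name no batch.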

Additional observations from a re-analysis of the deposited data

How the results depend on the processing

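Under all 17 alternatives, 0 genes, 0 members and 0 list genes passed the adjusted threshold, with smallest adjusted p-values over all genes between 0.231 and 0.699, and 1 member, Lum, stood at an unadjusted p below 0.05. The change of Lum ranged from -0.37 to -0.28 with single arrays left out and from -0.38 to -0.33 otherwise. Among these others only median centring, cyclic loess and array weights moved it. The rest kept the same values of Lum, so its estimate could not differ there. The median of the members ranged from -0.12 to -0.013 with single arrays left out. These ends came without kynurenic acid replicates 1 and 3, and without PBS replicate 1 it was -0.02. The sign turned for Dpp4 (-0.017 to 0.15 with single arrays left out), Pi16 (-0.088 to 0.052) and the cluster at the Ly6a position (-0.06 to 0.05, and -0.027 after centring arrays on their medians). Of 59 other named genes it turned for Coro1a alone (-0.215 to 0.045), and the cause was not tested in any of these. Of the 18 list medians, 10 changed sign under at least 1 alternative, among them the interferon-stimulated genes without PBS replicate 2 (-0.22 to 0.057). Both filters left out Dpp4, which gives no value there. Genes at an unadjusted p below 0.05 were 1369 lower and 1284 higher, against 2038 and 725 after median centring, 1210 and 722 at the 40th percentile filter, and 1246 and 702 with the filter on background. Without PBS replicate 2 they were 907 and 1036.

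With the replicate number as a block, Lum had -0.33 (adjusted p = 0.404), 0 genes were called and 1585 lower and 1308 higher genes stood at an unadjusted p below 0.05. Deviations from group means correlated at 0.063, 0.137 and 0.149 for same-numbered arrays over 15030 genes, each array best with its own number, which is a hint from the data and not a stated pairing. The paired fit changed no call. Values at the background level limit Dpp4, Pi16, Cd34 and Lum.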
